A study of Homo sapiens with 6 samples.

Results

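The Toll-like receptors and adaptors described here are 10 genes: the receptors TLR1, TLR2, TLR4, TLR5, TLR6, TLR7 and TLR8, the lipopolysaccharide co-receptors CD14 and LY96, and the adaptor MYD88. They were taken as every probe set, the group of short probes that reads 1 transcript on the array, whose annotation names only 1 of these genes. That gave 16 of the 54613 probe sets tested, with 4 for TLR4, 2 each for TLR6, TLR7 and TLR8, and 1 for each other gene. RNA came from MOLM-14, a human acute myeloid leukaemia line with an MLL-AF9 rearrangement, and was hybridised to 1 array a sample. There were 3 samples kept in DMSO, the solvent control, and 3 kept in 10 nM cortistatin A (CA), an inhibitor of the Mediator kinases CDK8 and CDK19, all for 24 h. Both groups were wells of the same line in the same medium, and the labels name no ligand of a Toll-like receptor for either. The values thus describe 1 line without a named stimulus, and whether the cells were free of such ligands was not examined.

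Toll-like receptors are transmembrane sensors of microbial molecules. TLR2 pairs with TLR1 or TLR6 to bind bacterial lipopeptides, TLR4 binds lipopolysaccharide with LY96 (MD-2) after CD14 has delivered it, TLR5 binds flagellin, and TLR7 and TLR8 bind single-stranded RNA in endosomes. All of the receptors listed here recruit MYD88, which assembles the IRAK kinases and TRAF6 and leads to NF-kB and to cytokine genes such as TNF. In monocytes and macrophages some of these receptors, such as TLR2 and TLR4, are abundant, and CD14 serves as a surface marker of monocytes.

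Of the 10 genes, 7 had an entry in the RefSeq promoter table (GRCh38.p14), and TLR1, TLR7 and LY96 had none. The 250 bases before the annotated start are shown for 4 of them. TLR2 and CD14 had the smallest unadjusted p-values of the set, TLR4 is the receptor that CD14 serves, and MYD88 is the adaptor the receptors share. Each is written 5′ to 3′ on the strand of its gene. Capitals mark matches on either strand to GAGGAA, a core sequence bound by PU.1, an ETS factor of myeloid cells. A match on the opposite strand reads as its reverse complement.
TLR2: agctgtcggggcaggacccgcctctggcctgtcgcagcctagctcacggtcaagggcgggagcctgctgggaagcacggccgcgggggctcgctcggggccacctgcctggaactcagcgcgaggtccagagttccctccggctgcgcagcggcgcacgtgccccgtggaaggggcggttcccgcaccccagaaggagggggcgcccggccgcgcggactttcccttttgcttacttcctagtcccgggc
TLR4: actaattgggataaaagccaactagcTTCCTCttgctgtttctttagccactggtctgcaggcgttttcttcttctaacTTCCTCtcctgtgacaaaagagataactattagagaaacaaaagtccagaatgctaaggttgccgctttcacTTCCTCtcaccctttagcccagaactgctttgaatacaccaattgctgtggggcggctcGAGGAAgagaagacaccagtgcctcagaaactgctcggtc
CD14: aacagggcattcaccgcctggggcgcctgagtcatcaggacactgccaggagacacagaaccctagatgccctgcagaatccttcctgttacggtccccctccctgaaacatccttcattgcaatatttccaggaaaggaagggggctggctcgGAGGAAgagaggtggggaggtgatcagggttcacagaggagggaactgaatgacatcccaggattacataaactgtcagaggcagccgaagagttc
MYD88: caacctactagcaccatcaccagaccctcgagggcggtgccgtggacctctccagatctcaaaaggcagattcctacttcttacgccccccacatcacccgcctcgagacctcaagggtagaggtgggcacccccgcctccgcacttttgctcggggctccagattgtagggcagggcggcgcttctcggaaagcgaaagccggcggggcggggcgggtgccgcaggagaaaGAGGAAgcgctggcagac
The windows are chr4:153684030-153684279 on the plus strand for TLR2, chr9:117704153-117704402 on the plus strand for TLR4, chr5:140633176-140633425 on the minus strand for CD14 and chr3:38138411-38138660 on the plus strand for MYD88. GAGGAA was present in 4 of the 7 windows (TLR4, TLR6, CD14 and MYD88), and in 23.6% of 35116 promoter windows of the same length. TLR4 held 4 matches, at 224, 171, 99 and 40 bases before its start, counted to the first base of each. The single matches of CD14 and MYD88 began 96 and 18 bases before the start. The TLR2 window held none. A match is only a string of letters, not evidence of binding.

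None of the 16 probe sets passed the test between CA and DMSO: 0 were higher and 0 lower by limma at an adjusted p under 0.05, on the deposited log2 values of all 6 arrays. Over all probe sets 5.01% were called in either direction, and 0 of 16 is near that share. At an unadjusted p under 0.05 there were 2, TLR2 and CD14, where the share over all probe sets was 18.5%. Changes ran from -0.29 (TLR6) to 0.35 (CD14) on the log2 scale, 8 below and 8 above 0, with a median of -0.00085 beside -0.0096 over all probe sets. The 95% confidence interval lay within 1.5-fold either way for 13 of the 16 and within 2-fold for all 16. Of all 54613 probe sets, 52949 lay within 1.5-fold, a larger share than among the 16, and 54361 within 2-fold. The 3 of the 16 whose interval reached beyond 1.5-fold were CD14, 1 probe set of TLR6 and 1 of TLR7.

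**Figure D1:**
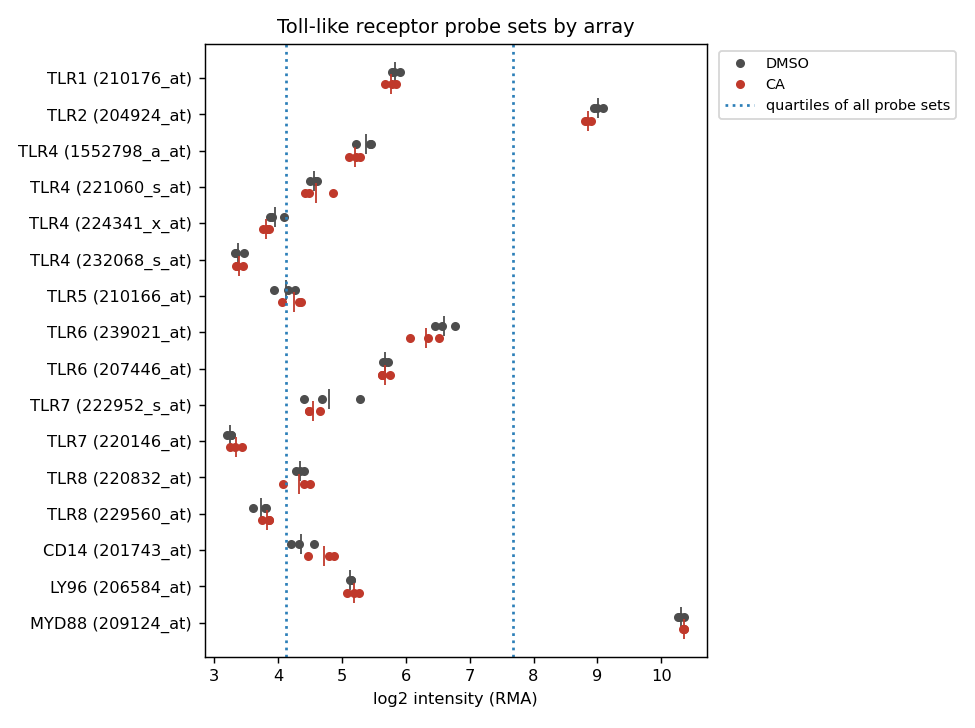
Log2 intensity (x axis) of the 16 probe sets of the 10 genes (rows) on the 3 DMSO and 3 CA arrays; points are arrays, short bars group means, and dotted lines the quartiles of all probe sets averaged over the arrays. The groups overlap in 14 of the 16 rows, and over all probe sets they overlap in 40881 of 54613. Only TLR2 and MYD88 lie to the right of the upper quartile.

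Deposited levels depend on each probe set's own affinity, so no level is set against that of another gene, and each is placed only among all probe sets of the arrays. The quartiles of the arrays were at 4.11 to 4.14 and 7.67 to 7.68. Only the probe sets of TLR2 and MYD88 had a mean above the upper quartile, at percentiles 85.1 and 93.3 of all probe sets. Another 4 lay below the lower quartile, 2 of TLR4, 1 of TLR7 and 1 of TLR8. No detection call accompanied the values, so a low level cannot be told apart from background hybridisation.

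TLR2, the receptor for lipopeptides, read 9.09, 8.95 and 8.99 in DMSO and 8.90, 8.81 and 8.84 in CA (log2 intensity, probe set 204924_at). The 3 CA values lay below the 3 DMSO values, a separation in the lower direction that 13.1% of all probe sets showed. The group means were 9.01 ± 0.08 and 8.85 ± 0.04 (SD, n = 3). The change was -0.16 (SE 0.06, 95% confidence interval -0.29 to -0.03), and it did not pass the test (limma adjusted p = 0.193). With an intensity trend and robust moderation in the same model, TLR2 was called lower (adjusted p = 0.0433), and it was the only probe set of the 16 called in any of the alternative fits. In a bulk sample, fewer cells that express a gene and less of its RNA per cell cannot be told apart.

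TLR1 and TLR6, the partners of TLR2, lie beside each other and TLR10 on chromosome 4. TLR1 read 5.90, 5.78 and 5.81 in DMSO and 5.84, 5.78 and 5.67 in CA, and the groups overlapped (change -0.07, 95% confidence interval -0.22 to 0.08, limma adjusted p = 0.636). With 1 array left out its change ranged from -0.11 (without CA replicate 1) to -0.02 (without CA replicate 3). For TLR6, 239021_at read 6.77, 6.45 and 6.57 in DMSO against 6.52, 6.35 and 6.06 in CA. Its lowest value was CA replicate 3 and its highest DMSO replicate 1, with overlap between the groups. The change of -0.29 (95% confidence interval -0.59 to 0.02, limma adjusted p = 0.301) was the largest negative one of the set, and was -0.16 without CA replicate 3. The other TLR6 probe set, 207446_at, was at 5.68 ± 0.04 in DMSO and 5.67 ± 0.08 in CA (SD, n = 3; change -0.0084). TLR1 and TLR6 are close paralogs, and whether a probe of one also reads the other was not examined.

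TLR4 had 4 probe sets, and they did not give 1 picture. The probe set with the highest mean, 1552798_a_at, read 5.43, 5.22 and 5.45 in DMSO and 5.22, 5.10 and 5.28 in CA (change -0.17, 95% confidence interval -0.35 to 0.02, limma adjusted p = 0.331). A second one, 224341_x_at, had non-overlapping groups, 3.87, 3.90 and 4.08 in DMSO and 3.76, 3.86 and 3.82 in CA, at a level below the lower quartile (change -0.14, limma adjusted p = 0.349). Without DMSO replicate 3 that change was -0.07, and 13.1% of all probe sets were lower in CA without overlap. The suffix _x_at marks probe sets that can read several transcripts, as does _s_at (here 221060_s_at, 232068_s_at and, for TLR7, 222952_s_at). The remaining ones, 221060_s_at and 232068_s_at, differed between the groups by 0.02 and 0.0067. In 221060_s_at, CA replicate 2 stood at 4.86 against 4.41 and 4.49 on the other CA arrays, and without it the change was -0.11.

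CD14, which hands lipopolysaccharide to TLR4, had the largest positive difference. Its mean of 4.53 lay at percentile 32.4 of all probe sets, in the lower part of the array range. It read 4.20, 4.32 and 4.55 in DMSO and 4.87, 4.46 and 4.80 in CA, so that CA replicate 2 lay below DMSO replicate 3 and the groups overlapped. The means of 4.36 ± 0.18 and 4.71 ± 0.22 (SD, n = 3) differ 1.28-fold, with a change of 0.35 (SE 0.13, 95% confidence interval 0.04 to 0.66). The test was not passed (limma adjusted p = 0.212), and no fit with 1 array left out called it. At its own error the CD14 probe set would have needed a change of 0.60 in either direction to be called.

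LY96, the subunit through which TLR4 binds lipopolysaccharide, read 5.12, 5.14 and 5.14 in DMSO and 5.08, 5.27 and 5.19 in CA. The CA values lay on both sides of the DMSO values, and the change was 0.05 (95% confidence interval -0.09 to 0.19, limma adjusted p = 0.735). It was 0.10 without CA replicate 1 and 0.0047 without CA replicate 2. TLR5, the flagellin receptor, read 4.15, 4.27 and 3.93 in DMSO and 4.32, 4.36 and 4.06 in CA, near the lower quartile. Its groups overlapped as well (change 0.13, 95% confidence interval -0.13 to 0.40, limma adjusted p = 0.609), and the change was 0.04 without DMSO replicate 3 and 0.23 without CA replicate 3.

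TLR7 and TLR8, the endosomal RNA sensors, are neighbours on chromosome X. The TLR7 probe set 222952_s_at read 5.28, 4.41 and 4.68 in DMSO and 4.66, 4.48 and 4.48 in CA. Its DMSO spread (SD 0.45, n = 3) was the widest of any group here, and the change of -0.25 (95% confidence interval -0.73 to 0.23) became -0.0068 without DMSO replicate 1 and -0.44 without DMSO replicate 2. The other TLR7 probe set, 220146_at, was at 3.24 ± 0.03 and 3.33 ± 0.10 (SD, n = 3; change 0.09, limma adjusted p = 0.486), below the lower quartile. TLR8 read 4.40, 4.28 and 4.35 in DMSO and 4.50, 4.08 and 4.40 in CA with 220832_at (change -0.02), and 3.74 ± 0.11 and 3.82 ± 0.07 with 229560_at (SD, n = 3; change 0.09). For both genes the 2 probe sets had changes of opposite sign. With 1 array left out, the change ran from 0.04 (without CA replicate 2) to 0.14 (without CA replicate 3) for 220146_at, and it was 0.02 without DMSO replicate 2 for 229560_at.

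MYD88 was the member measured most precisely. It read 10.36, 10.27 and 10.30 in DMSO and 10.34, 10.36 and 10.36 in CA, with overlapping groups. The change was 0.04 (SE 0.05, 95% confidence interval -0.07 to 0.16, limma adjusted p = 0.698), and 0.07 without DMSO replicate 1 or 0.02 without DMSO replicate 2. A change of 0.22 in either direction would have been called at this error, the smallest such value among the 16 probe sets, whose median was 0.32 and maximum 0.93 (TLR7, 222952_s_at).

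**Figure D2:**
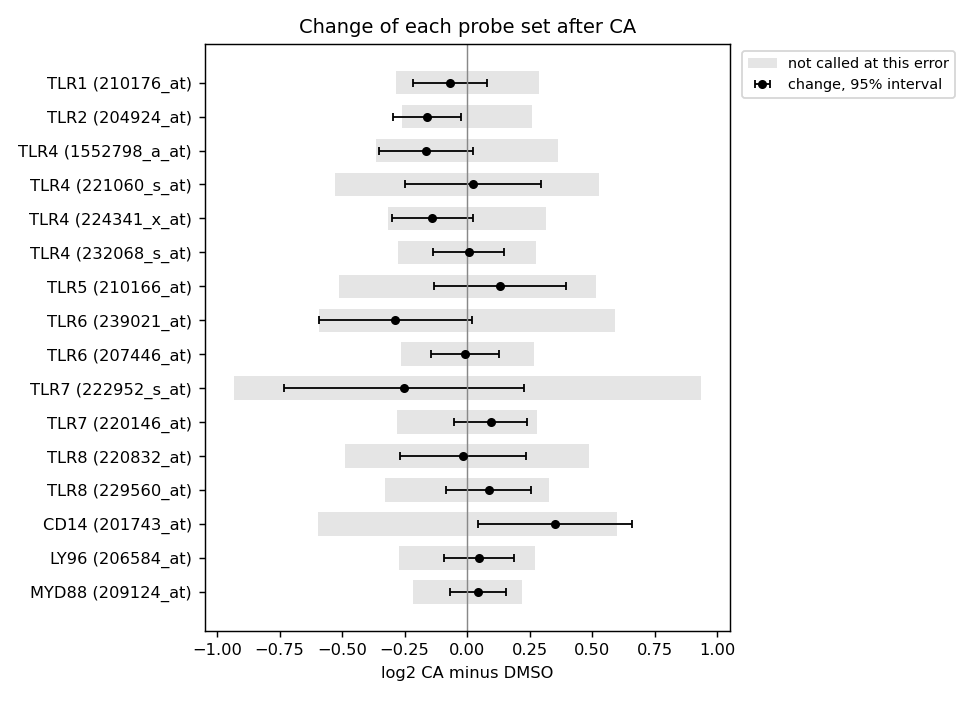
Log2 CA minus DMSO (x axis) of each of the 16 probe sets (rows), with bars for the 95% confidence interval from limma; grey marks the changes that would not have been called at that probe set's error. All points lie in the grey, from -0.29 (TLR6, 239021_at) to 0.35 (CD14).

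The other genes of the pathway were counted from 7 lists by role, with 1 probe set a gene, that of highest mean. Of 97 listed genes 89 were measured, and of these 17 rose and 4 fell by limma at an adjusted p under 0.05. Over all genes counted in this way, 4.31% were called higher and 2.55% lower. The lists were chosen with earlier results of these data known, so setting their counts beside these shares is not a test of the pathway. The median change of the 89 genes was 0.0079, beside -0.0034 over all genes. When the suffixes _x_at and _s_at were left out, since such probe sets can read several transcripts, 7 of 68 measured pathway genes rose and 3 fell. The share over all genes was not counted under this filter, so these counts cannot be set against 4.31% and 2.55%.

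Among other receptors and accessory proteins, 3 of 16 rose and 2 fell (median -0.06). SLC15A4, an endolysosomal transporter needed for signalling by TLR7 and TLR9, read 10.60, 10.59 and 10.59 in DMSO and 11.73, 11.75 and 11.77 in CA. It rose 2.23-fold (change 1.16, SE 0.04, limma adjusted p = 6.78e-05), and 2 of its 3 probe sets were called. TASL, the adaptor that SLC15A4 holds at the lysosome and that recruits IRF5, read 10.97, 10.98 and 11.09 in DMSO and 10.38, 10.39 and 10.34 in CA. It fell 1.57-fold (change -0.65, SE 0.05, limma adjusted p = 0.00117), on its only probe set, which ends in _x_at. IRF5 itself was not called (change -0.15, limma adjusted p = 0.275).

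Both SLC15A4 and TASL kept their calls with any 1 of the 6 arrays left out. CD36, a scavenger receptor that assists TLR2, fell 2.81-fold (change -1.49, limma adjusted p = 3.26e-04), and 3 of its 5 probe sets were called. Also called, though under 1.5-fold and named after their values were seen, were CD180, an inhibitory homologue of TLR4 (0.39), and RNF170, a ubiquitin ligase that acts on TLR3 (0.28). CD180 lost its call in 4 of the 6 fits with 1 array left out (adjusted p up to 0.0634, without DMSO replicate 2 or 3 or CA replicate 1 or 2), and RNF170 in all 6 (up to 0.0941). The receptors that are not members were not called: the difference was 0.05 for TLR3, -0.08 for TLR9 and 0.31 for TLR10 (limma adjusted p = 0.754, 0.482 and 0.147).

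Of 9 measured adaptors and proximal kinases 1 rose, IRAK1, the kinase recruited by MYD88 and IRAK4. It read 11.66, 11.63 and 11.62 in DMSO and 11.97, 12.02 and 12.01 in CA, a 1.29-fold rise (change 0.36, limma adjusted p = 0.00639) seen on 1 of its 2 probe sets. Among the 14 downstream kinases and ubiquitin ligases measured, 0 were called by limma (2 at an unadjusted p under 0.05), with changes from -0.19 (PELI2) to 0.16 (PELI1). Negative regulators had 5 of 11 higher and 0 lower (median 0.27). All 5 were called on probe sets ending in _s_at, which can read several transcripts. TNFAIP3, the ubiquitin-editing inhibitor of NF-kB also called A20, rose 1.77-fold (change 0.83, limma adjusted p = 2.06e-04). SOCS1, a suppressor of cytokine signalling, rose 1.64-fold (change 0.71, limma adjusted p = 0.0111) on 1 of 4 probe sets, and without CA replicate 3 its adjusted p was 0.0520.

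Named after their values were seen, NFKBIA (0.58), TNIP1 (0.27) and ATF3 (0.27) were the other negative regulators that rose. Each was called on 1 probe set only, of 2 for NFKBIA, 2 for TNIP1 and 3 for ATF3. The other TNIP1 probe set was at -0.14. TNIP1 and ATF3 lost their calls with each of the 6 arrays left out (adjusted p of 0.0543 to 0.120), while NFKBIA did not. IRAK3, the inactive kinase that blocks IRAK signalling, was at -0.14 with non-overlapping groups and was not called (limma adjusted p = 0.194). Several of these regulators are themselves NF-kB targets, so the list is not separate from the target list in function.

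**Figure D3:**
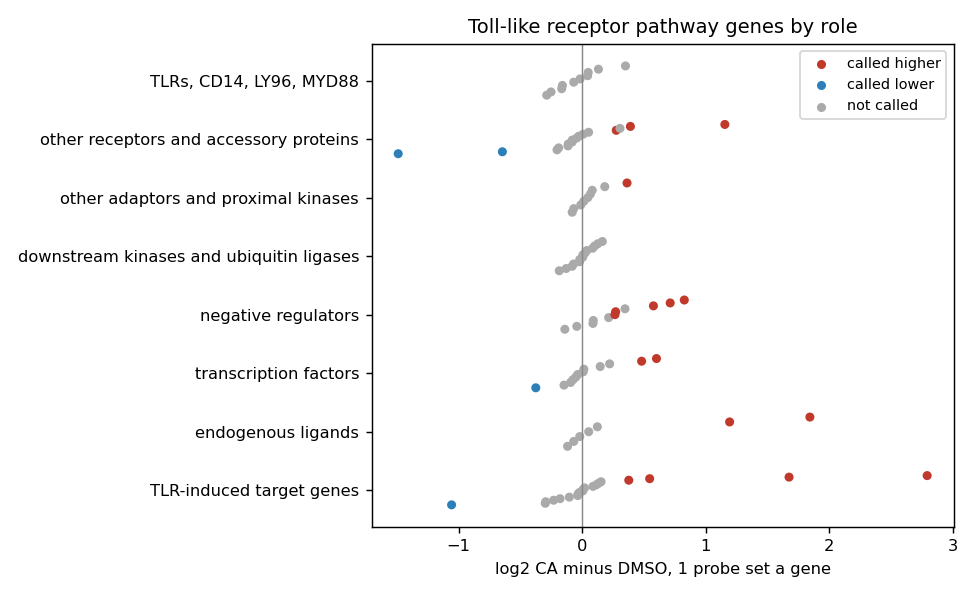
Log2 CA minus DMSO (x axis) of 1 probe set a gene, with genes grouped by role (rows; points are spread vertically in order of change) and coloured by the call of limma. The 10 receptors and adaptors of the top row are all grey, where over all genes 4.31% were called higher and 2.55% lower. Called genes appear in 6 of the 7 other rows, whose lists were chosen with earlier results of these data known.

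Of 12 transcription factors, 2 rose and 1 fell (median -0.01). IRF8, an interferon regulatory factor of myeloid cells, rose 1.52-fold (change 0.60, limma adjusted p = 7.07e-04). IRF7, which drives type I interferon genes downstream of TLR7 and TLR9, and the AP-1 subunit FOS were called at changes of 0.48 and -0.38, both named after their values were seen, and FOS lost its call without DMSO replicate 3 (adjusted p = 0.0540). The NF-kB subunits NFKB1 (-0.04) and RELA (0.15) were not called (limma adjusted p = 0.771 and 0.198).

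Among 7 measured endogenous ligands, 2 rose and 0 fell. S100A8 and S100A9, whose complex is a ligand of TLR4, rose 2.29-fold and 3.59-fold (limma adjusted p = 1.45e-04 and 4.29e-05), whereas HMGB1 was at -0.02. Of 20 genes that Toll-like receptors induce, 4 rose and 1 fell (median 0.0058). CXCL10 (2.79) and TNF (1.68) rose, as did the adhesion molecule ICAM1 (0.55, limma adjusted p = 0.00225) and the NF-kB regulator NFKBIZ (0.38, 0.00864), the last 2 named after their values were seen. ICAM1 was called on 2 of its 3 probe sets and NFKBIZ on 1 of its 2. CCL5 fell (-1.06). The interleukins IL1B (-0.30, limma adjusted p = 0.242) and IL6 (-0.02, 0.935), the chemokine CXCL8 (-0.30, 0.215) and the prostaglandin synthase PTGS2 (0.02, 0.939) were not called. IL6, CXCL8 and PTGS2 had means between 4.25 and 4.68, in the lower part of the array range.

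**Figure D4:**
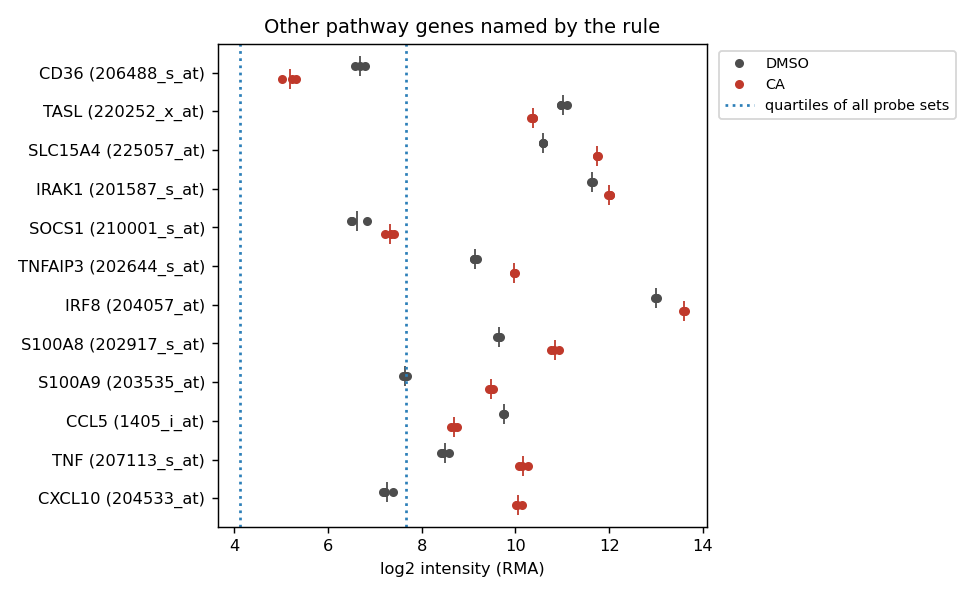
Log2 intensity (x axis) of the 12 other pathway genes named by the rule, on the 3 DMSO and 3 CA arrays; points are arrays, short bars group means and dotted lines the quartiles of all probe sets. The groups do not overlap in any of the 12 rows, which largely follows from choosing called genes. Of all 54613 probe sets, 6601 were higher and 7131 lower in CA without overlap. TASL, CD36 and CCL5 are the rows with lower values in CA.

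Correlations between arrays over all probe sets were 0.998 within a group and 0.996 to 0.997 between groups, and no array stood apart. Of 9 measured markers of the line and of myeloid cells, 7 had a mean log2 of at least 6, with FLT3 at 11.69 ± 0.02 and LYZ at 13.38 ± 0.10 in DMSO (SD, n = 3). SPI1 and FCGR1A were below it. ITGAM (-0.45, limma adjusted p = 0.00779) and CSF1R (-0.39, 0.0241) were called lower, and MEIS1 (0.25, 0.0430) higher. The others were not called, with changes of 0.03 for FLT3, 0.06 for MPO and 0.07 for SPI1. The change was -0.05 for LYZ, -0.0069 for CEBPA and -0.18 for FCGR1A. The summed log2 of the 9 was 78.15 to 78.32 in DMSO and 77.38 to 77.66 in CA, without overlap. Of 5 T and NK cell markers, 0 reached that mean, but their summed log2 was 25.57 to 26.48 in DMSO and 26.90 to 27.13 in CA, and GNLY was called higher. A mean of at least 6 was also reached by 1 of 4 B cell markers and 1 of 4 erythroid markers. So it was by 2 of 5 markers of megakaryocytes and platelets and 1 of 6 epithelial and stromal markers. Levels depend on each probe set's affinity, so this mean alone does not mark expression. RNA integrity was read from the GAPDH control as its 3' minus its 5' signal, which averaged 0.38 ± 0.02 under DMSO and 0.48 ± 0.05 under CA (SD, n = 3). That gave an exact permutation p = 0.1, 2-sided, the smallest that 3 against 3 allows. The same measure of the ACTB control overlapped between the groups, at 2.27 ± 0.13 under DMSO and 2.38 ± 0.07 under CA (SD, n = 3; exact permutation p = 0.3). The part of these marker and RNA values in the differences above was not tested.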

How the data were processed

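RNA from 3 DMSO and 3 CA samples of MOLM-14 was measured on Affymetrix U133 Plus arrays. The authors deposited 1 log2 intensity for each probe set and array. They used RMA and the affy package according to the submitters' processing notes (versions: not given in the sources used here). RMA corrects background, quantile-normalizes arrays and compresses large differences. The labels' protocols name more than 1 RNA isolation kit without assigning them to samples.

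The table held 54675 probe sets. Leaving out 62 controls, 54613 were fitted by limma 3.58.1 in R 4.3.3 (lmFit, eBayes, 2-sided, no covariates, no filter on level), adjusted by Benjamini-Hochberg over all of them and called at an adjusted p under 0.05. The fit was tested on simulated data. The platform annotation gave 41091 probe sets 1 symbol, 1801 several and left 11721 unnamed here. Symbols were updated by Entrez number for 41037 through a RefSeq table of GRCh38.p14. For pathway lists and markers each of 19775 genes was represented by its probe set of highest mean.

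Named genes were every member, every called pathway gene of at least 1.5-fold and, for a list without one, its called gene of largest change. Any other pathway gene or marker in the text, called or not, was chosen after its values were seen. Members, lists and motifs were chosen with earlier results of these data known. The samples were wells, and nothing says they came from separate cultures, so the p-values rest on the spread between these wells alone, which may be technical. Arrays have no sequencing depth, and their number limits the precision. Genes most like a called member were to be named, but no member was called.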

Additional observations from a re-analysis of the deposited data

How the results depend on the processing

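Among the 16 probe sets of the Toll-like receptors and adaptors, 0 were called higher in any of the 16 alternatives, and 0 lower except with an intensity trend and robust moderation, which called 1 (TLR2). Of 224 values of single probe sets under alternatives, 211 kept their direction and their side of the threshold. Many of the 224 could not change direction. Filters, other moderation, the replicate block and a threshold of 1.2-fold leave the change itself as it was, and the fold threshold can only remove calls. The 12 values that changed sign were of uncalled changes near 0. TLR6 (207446_at) was at 0.00099 with arrays centred on their medians and 0.0010 after a second quantile normalization. With 1 array left out, the changes ran from -0.054 to 0.015 for this probe set, from -0.11 to 0.11 for TLR4 (221060_s_at), from -0.026 to 0.051 for TLR4 (232068_s_at) and from -0.10 to 0.11 for TLR8 (220832_at). Of the other pathway genes 13 to 14 were called higher and 3 to 4 lower with 1 array left out. With the suffixes _x_at and _s_at left out, 7 of 68 measured pathway genes were higher, against 17 of 89 as reported. Genes with only such probe sets, TNF among them, dropped out. With the intensity trend 7 of 89 were lower, against 4 as reported. The cause of either difference was not tested. With the replicate number as a block, 0 probe sets of the 10 genes were called, and 13 other pathway genes were higher and 4 lower. Same-numbered samples did not deviate together (r of -0.03 to 0.03), and no sample correlated best with its own number. The number of arrays limits what could be called.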
